A study of Mus musculus with 9 samples.

Results

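Glutathione transferases, epoxide hydrolases and aldehyde dehydrogenases are enzymes that deal with electrophiles, epoxides and aldehydes, many of them products of lipid oxidation. Their genes were followed here in NIH-CAR mouse fibroblasts given PPARγ and its agonist. Members were all genes with 1 symbol per probe set whose symbol begins with Gst, Mgst, Ephx or Aldh followed by the class letter, where there is one, and the member number. That gave 47 of the 18193 genes measured: 20 soluble glutathione transferases, 3 microsomal glutathione transferases, 4 epoxide hydrolases and 20 aldehyde dehydrogenases. Of several probe sets for a gene, the one with the highest 9-array mean stands for it.

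Glutathione transferases join the tripeptide glutathione to reactive compounds. The soluble classes (alpha, mu, omega, pi, theta, zeta and kappa) work in the cytosol or mitochondria, and the microsomal enzymes are unrelated membrane proteins, some of which act on leukotrienes or reduce lipid hydroperoxides. Epoxide hydrolases open epoxides, among them those made from arachidonic acid, to diols, and aldehyde dehydrogenases oxidise aldehydes to acids, including retinal to retinoic acid. Adipose tissue expresses many of these enzymes, and PPARγ is the nuclear receptor that directs adipocyte formation.

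Total RNA was measured on 9 Affymetrix arrays, 3 per group. The NIH-CAR line is 1 clone of NIH-3T3 fibroblasts with a stable coxsackievirus and adenovirus receptor, CARΔ1, through which adenovirus enters, and all groups were at passage 12 in medium with 10% calf serum. Control cells received adenovirus with an empty vector (AdEmpty) and then the vehicle DMSO. The other groups received adenovirus for full-length HA-tagged PPARg2, or for HA-PPARgCDE, which lacks the N-terminal A/B-domain, each followed by 1 µM of the agonist rosiglitazone. Every group was exposed to virus for 2 h at 80% confluency. Receptor and agonist were added together, so their effects cannot be told apart. The comparisons ask which members respond to each receptor with its agonist, and, between the receptors, where the A/B-domain bears on that response.

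Levels are log2 RMA values, so 1 unit is a change of 2-fold, and a difference is given as the first group minus the second. Values of single arrays follow the replicate numbers 1, 2 and 3 of the sample titles. Array medians ran from 6.68 to 6.90. A gene was called at a limma adjusted p under 0.05 over all genes. Unless stated, the fit does not pair arrays of equal replicate number. Because all arrays are of 1 cell line, the p-values reflect only the spread between arrays, and no read depth exists for arrays, so the number of arrays limits the precision. In total RNA of a culture, fewer cells that express a gene and less RNA per cell cannot be told apart.

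Pparg, which checks the labels, read 7.01, 6.99 and 7.17 on the empty-vector arrays. The full-length arrays read 10.70, 12.22 and 10.84, and the deleted-receptor arrays 10.74, 12.01 and 11.26. Every receptor array lay above every empty-vector array, and the receptor groups overlapped. Cxadr, the mouse gene of the adenovirus receptor, was called in no comparison. All 9 fibroblast markers stood above the median of all probe sets, and none was called. Of 5 adipocyte markers measured, Fabp4 and Cidec were called higher for full-length receptor and Fabp4 for deleted receptor. Of the 5, 3 had a 9-array mean below the median of all probe sets. The summed level of the adipocyte markers, the log2 of their added antilogs, depends mostly on the brightest of them. This sum was 7.95 to 8.48 in the empty-vector arrays, 13.18 to 13.69 in the full-length and 11.20 to 13.20 in the deleted-receptor arrays. The part of these markers in the results on the enzymes was not tested. The 3 arrays numbered 3 stood apart on the first principal component, which held 38.1% of the variance, and their 18S control probe sets averaged 7.59 to 8.67 against 10.51 to 12.44 on the other arrays.

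With the full-length receptor, 3 of the 47 members were called higher than with empty vector: Mgst1, Ephx2 and Aldh9a1. No member was called lower by limma, while 5 members, these 3 with Mgst3 and Aldh3a2, had an unadjusted p under 0.05, as did 6.19% of all genes. Over all 18193 genes, 0.5% were called higher and 0.154% lower. For deleted receptor against empty vector, Mgst1 and Aldh9a1, 2 of 47, were called higher, against 0.159% of all genes, and none was called lower, against 0.011%. Here 4 members and 3.79% of all genes had an unadjusted p under 0.05. With the replicate number as a block, which pairs the arrays in this comparison, 3 members were called higher with the deleted receptor, Mgst3 being the third, against 0.66% of all genes, and 0 lower, against 0.253%. In that fit 10 members and 9.84% of all genes had an unadjusted p under 0.05. Between the receptors 0 members and 0 of all genes were called by limma with or without the block. There, 3 members and 1.52% of all genes had an unadjusted p under 0.05, and 4 members and 4.32% of all genes did with the block.

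**Figure D1:**
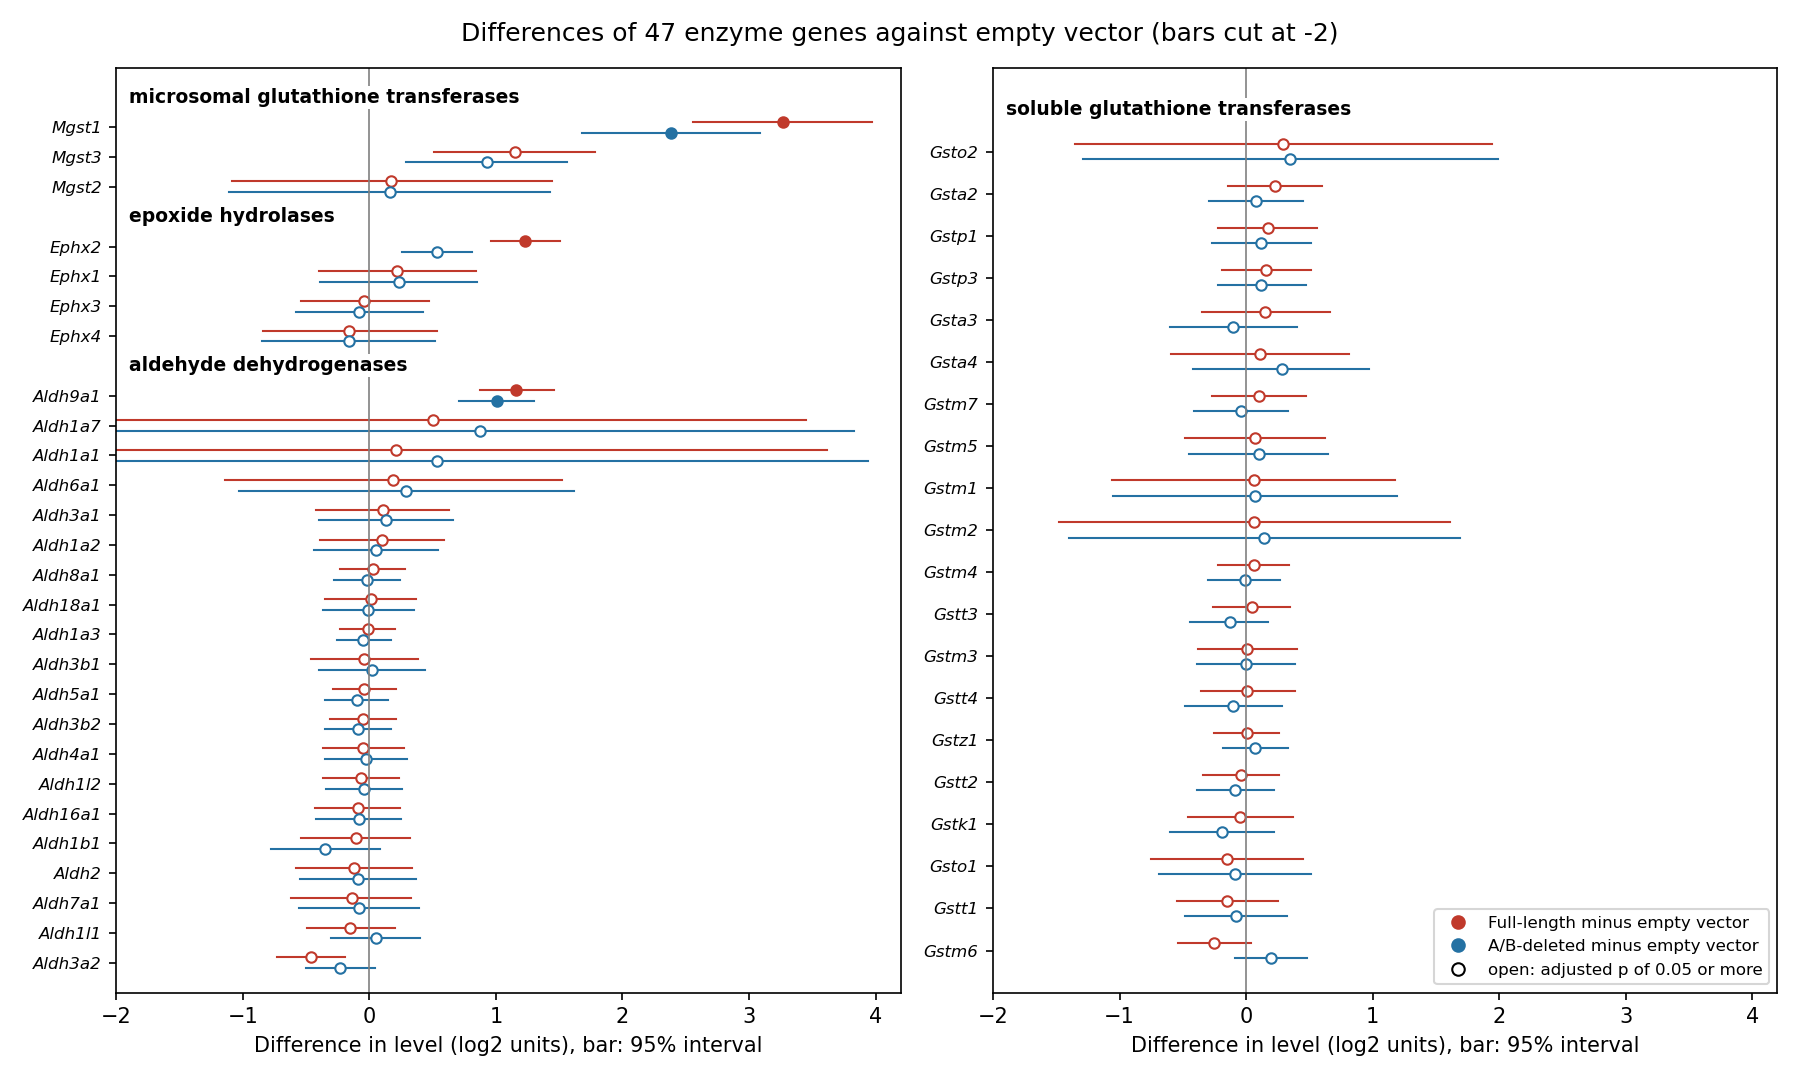
Difference in log2 level against empty vector for each of the 47 members, with the full-length receptor in red and the deleted receptor in blue, points showing the difference of the means (n = 3 per group) and bars the 95% interval, cut at -2. Filled points are called; these are Mgst1 and Aldh9a1 with both receptors and Ephx2 with the full-length receptor, and most other points lie close to 0.

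The 47 members had a median difference of 0.03 with the full-length receptor, where all genes had 0.00. By family the median was 1.15 for the 3 microsomal transferases, 0.09 for the 4 epoxide hydrolases, 0.06 for the 20 soluble transferases and -0.04 for the 20 aldehyde dehydrogenases. For deleted receptor the medians in the same order were 0.93, 0.08, 0.03 and -0.02, beside -0.03 for all genes. With only 3 members, both microsomal medians are the values of Mgst3, which was not called without the block. The 3 microsomal differences ran from 0.17 to 3.27 with the full-length and from 0.16 to 2.38 with the deleted receptor. Both comparisons use the same empty-vector arrays. The called members were 1 microsomal transferase, 1 epoxide hydrolase and 1 aldehyde dehydrogenase.

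Mgst1, the microsomal transferase that also reduces lipid hydroperoxides, had the largest difference of all members against empty vector with both receptors. Its arrays read 6.58, 6.83 and 7.70 with empty vector, 10.06, 10.71 and 10.14 for full-length receptor and 9.21, 9.88 and 9.16 for deleted receptor. The 3 groups did not overlap: every full-length array lay above every deleted-receptor array, and these above every empty-vector array. Means were 7.04 ± 0.59 (SD, n = 3), 10.30 ± 0.36 and 9.42 ± 0.40.

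Mgst1 rose by 3.27 under full-length receptor (SE 0.31, 95% interval 2.56 to 3.97, limma adjusted p = 0.00179), or 9.63-fold. Deleted receptor gave a rise of 2.38 (SE 0.31, 95% interval 1.68 to 3.09, limma adjusted p = 0.0210), or 5.21-fold. Leaving out the 3 arrays numbered 3 gave 3.68 and 2.84. The call with the deleted receptor was lost without empty-vector array 1 (limma adjusted p = 0.0944) or 2 (0.162), and without deleted-receptor array 1 (0.0895), 2 (0.113) or 3 (0.0595). It was also lost in a fit of only the 6 arrays compared (0.0510).

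Deleted minus full-length was -0.89 for Mgst1 (SE 0.31, 95% interval -1.59 to -0.18), a difference that was not called (limma adjusted p = 1.00). The other probe set of Mgst1 differed from the kept one: its differences against empty vector were 0.22 (SE 0.14) and 0.23 (SE 0.14), neither of them called. Its means were 5.13 with empty vector, 5.35 with the full-length and 5.36 with the deleted receptor. All lay below the median of all probe sets, 6.81. The mean of both probe sets gave 1.74 for full-length and 1.30 for deleted receptor.

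Mgst3, a relative with glutathione peroxidase activity, read 8.35, 8.84 and 9.18 with empty vector. Its full-length arrays read 9.50, 10.27 and 10.04 and its deleted-receptor arrays 9.26, 10.07 and 9.82. Both receptor groups lay wholly above empty vector and overlapped each other, and in each group the array numbered 1 was the lowest. The difference with the full-length receptor was 1.15 (SE 0.28, 95% interval 0.51 to 1.78, limma adjusted p = 0.179), which was not called. With the deleted receptor it was 0.93 (SE 0.28, 95% interval 0.29 to 1.56), not called without the block (limma adjusted p = 0.748) and called with it (SE 0.13, limma adjusted p = 0.0339). The second probe set of Mgst3 differed by 0.32 (SE 0.15) and 0.33 (SE 0.15). Its means were 5.80 with empty vector and 6.13 with either receptor, below the median of all probe sets.

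Mgst2, which can make leukotriene C as its relative leukotriene C synthase does, read 9.76, 10.00 and 8.23 with empty vector, 9.79, 10.14 and 8.59 with the full-length and 9.99, 9.88 and 8.61 with the deleted receptor. All 3 groups overlapped, and the array numbered 3 was the lowest of each. Its differences against empty vector were 0.17 (95% interval -1.09 to 1.44) and 0.16 (95% interval -1.11 to 1.43).

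Ephx2 encodes soluble epoxide hydrolase, which turns epoxides of arachidonic and linoleic acid into diols. Its arrays read 7.0, 6.84 and 7.18 with empty vector, 8.22, 8.25 and 8.25 for full-length receptor and 7.59, 7.38 and 7.64 for deleted receptor. The groups did not overlap, in the order full-length, deleted, empty vector. Of all genes, 0.445% had their 3 groups apart in that order, and of the 47 members Ephx2 and Mgst1 did.

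Ephx2 rose by 1.23 with the full-length receptor (SE 0.12, 95% interval 0.96 to 1.51, limma adjusted p = 0.00211), or 2.35-fold. With the deleted receptor the difference was 0.53 (SE 0.12, 95% interval 0.26 to 0.81), which was not called without the block (limma adjusted p = 0.317) or with it (0.0652). Deleted minus full-length was -0.70 (95% interval -0.98 to -0.43). It had the smallest unadjusted p of the members in that comparison, 0.000239, but was not called over all genes (limma adjusted p = 0.871, and 0.215 with the block).

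The other epoxide hydrolases were not called. Ephx1, the microsomal enzyme that acts on foreign epoxides, read 9.0, 9.82 and 9.43 with empty vector and differed by 0.22 for full-length and 0.23 for deleted receptor, with overlapping arrays. Ephx3 differed by -0.04 and -0.08, and Ephx4 by -0.16 and -0.16. The mean levels of Ephx3 and Ephx4 over the 9 arrays, 6.76 and 6.05, lay below the median of all probe sets, 6.81.

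**Figure D2:**
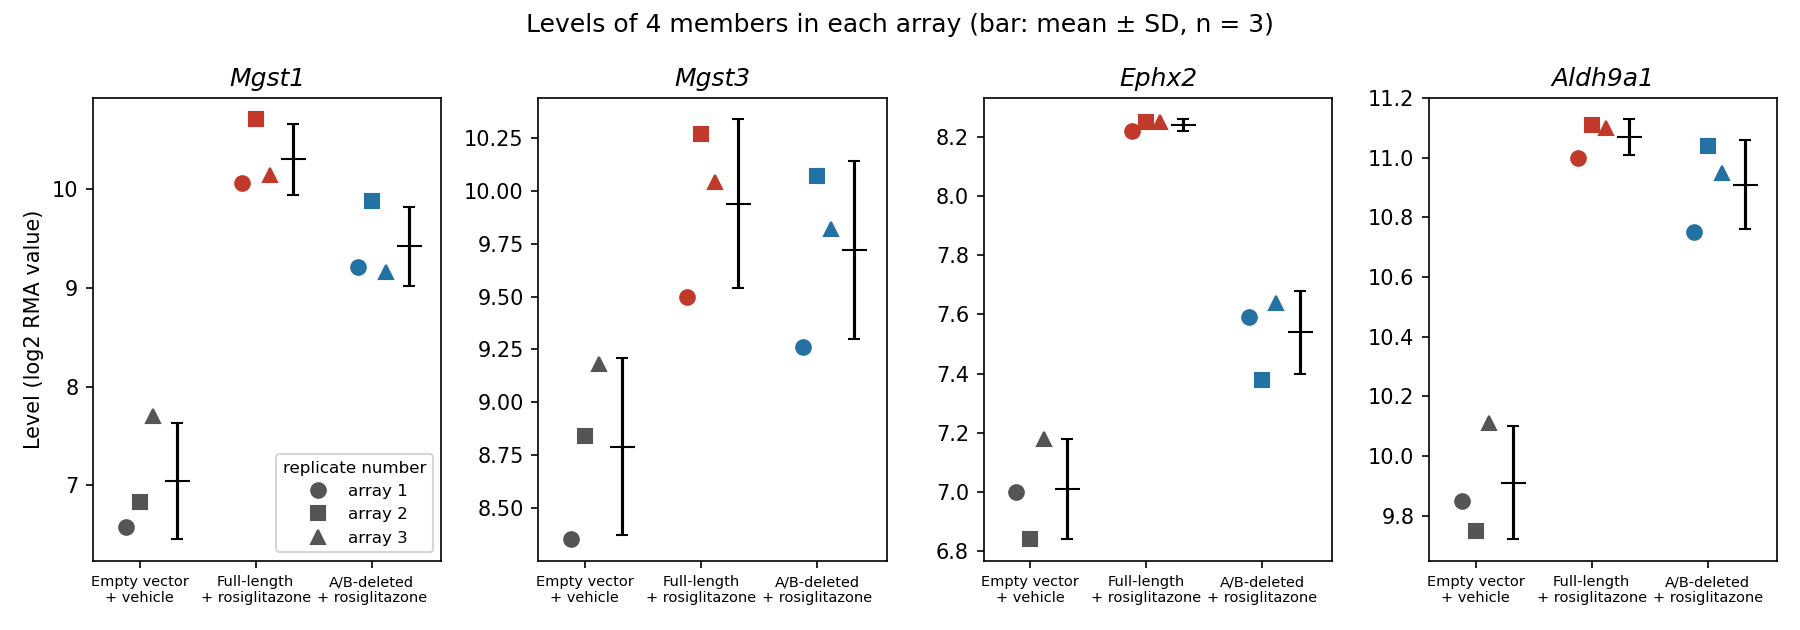
Log2 RMA level of Mgst1, Mgst3, Ephx2 and Aldh9a1 in each of the 9 arrays, by group; each point is 1 array, its shape the replicate number, and the bar the mean ± SD (n = 3). The vertical axes differ between genes and do not start at 0. In Mgst1 and Ephx2 the deleted-receptor arrays lie between the other groups, while in Mgst3 and Aldh9a1 both receptor groups overlap above empty vector.

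Aldh9a1 oxidises the aldehyde precursor of carnitine, the carrier of fatty acids into mitochondria. It read 9.85, 9.75 and 10.11 with empty vector, 11.00, 11.11 and 11.10 for full-length receptor and 10.75, 11.04 and 10.95 for deleted receptor. Both receptor groups lay above empty vector and overlapped each other at their edge. The rise was 1.16 with the full-length receptor (SE 0.13, 95% interval 0.87 to 1.46, limma adjusted p = 0.00430), or 2.24-fold, and 1.01 with the deleted one (SE 0.13, 95% interval 0.71 to 1.30, limma adjusted p = 0.0190), or 2.01-fold. Deleted minus full-length was -0.16 (95% interval -0.45 to 0.14), which leaves room for a small difference either way. Its second probe set differed by 1.20 (SE 0.15) and 0.98 (SE 0.15).

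The call of Aldh9a1 with the deleted receptor was lost without empty-vector array 1 (limma adjusted p = 0.108) or 2 (0.127), deleted-receptor array 2 (0.127) or 3 (0.0863), or full-length array 2 (0.0505). It was also lost with only the 6 arrays compared (0.0808) and after subtraction of each array's median (0.0557). With the full-length receptor Mgst1, Ephx2 and Aldh9a1 were called in each of 18 alternative fits, with limma adjusted p of at most 0.0166, 0.0168 and 0.0312.

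The other 19 aldehyde dehydrogenases were not called in the fit without a block. Aldh3a2, which oxidises long-chain fatty aldehydes in the endoplasmic reticulum, read 8.35, 8.26 and 8.46 with empty vector, 8.09, 7.77 and 7.83 with the full-length and 8.17, 8.05 and 8.18 with the deleted receptor. Both receptor groups lay below empty vector. Its differences were -0.46 (SE 0.12, 95% interval -0.73 to -0.19, limma adjusted p = 0.206) and -0.23 (95% interval -0.50 to 0.04). It is the only member whose full-length arrays all lay below the empty-vector arrays. Aldh1b1, a mitochondrial enzyme, differed by -0.35 with the deleted receptor (95% interval -0.78 to 0.08), its arrays apart from empty vector.

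Arrays that did not overlap were counted in all members. With the full-length receptor 4 of 47 members (8.51%) lay wholly above empty vector and 1 (2.13%) wholly below, against 4.52% and 4.86% of all genes. With the deleted receptor the same 4 members, Mgst1, Mgst3, Ephx2 and Aldh9a1, lay above and 2 lay below (4.26%), against 3.86% and 4.03% of all genes. Between the receptors Gstm6 lay above and Ephx2 and Mgst1 below with the deleted receptor, against 2.02% and 3.14% of all genes.

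None of the 20 soluble glutathione transferases was called in any comparison, with or without the block. Under full-length receptor all 20 differences lay between -0.25 and 0.29, and 15 were above 0, against 9269 of all 18193 genes. After median subtraction these counts were 12 and 7968. For deleted receptor the differences lay between -0.19 and 0.35, and 10 were above 0, against 7684 of all genes. By unadjusted p without the block, 0, 0 and 1 of the 20 fell under 0.05 for full-length receptor, for deleted receptor and between the receptors. With the block, 2 and 1 did for deleted receptor and between the receptors, against 9.84% and 4.32% of all genes. Gsto2, an omega-class enzyme that reduces dehydroascorbate, differed by 0.29 (95% interval -1.35 to 1.94) and 0.35 (95% interval -1.29 to 1.99). These intervals leave the replicate number out of the fit. At each replicate number the deleted-receptor array of Gsto2 read above the empty-vector array. Gsta4, which conjugates the lipid peroxidation product hydroxynonenal, differed by 0.11 and 0.28. With the block the 95% interval of the latter was 0.07 to 0.48, and it was not called (limma adjusted p = 0.305).

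Gstm6, a mu-class gene, read 5.40, 5.47 and 5.25 with the full-length and 5.75, 5.86 and 5.84 with the deleted receptor. These arrays did not overlap, and the difference was 0.45 (95% interval 0.16 to 0.73, limma adjusted p = 1.00), which was not called. Gsta2 differed by 0.23 with the full-length receptor, and Gsta3 and Gstt3 by -0.25 and -0.18 between the receptors, all with overlapping arrays. The mean of Gstm6, Gsta2 and Gsta3 lay below the median of all probe sets, as did that of 15 of 47 members (31.9%) and 36.9% of all genes. Without detection calls it is unknown which of these transcripts were present. Probe sets of the close mu-class copies can share transcripts, so their separate values are uncertain.

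In some members the replicate number separated the arrays more than the group did. The range between the 3 number means was larger than that between the 3 group means in 30 of 47 members (63.8%) and in 65.4% of all genes. It reached 1 log2 unit or more in 7 members (14.9%), against 2.44% of all genes. These 7, picked out after their values were seen, were Aldh1a1 (4.08), Aldh1a7 (3.59), Gsto2 (2.20), Gstm2 (2.05), Aldh6a1 (1.57), Mgst2 (1.53) and Gstm1 (1.49). The range between group means reached 1 unit in 4 members (8.51%), against 0.967% of all genes. The design text speaks of individual experiments but does not say which arrays came from which, so what the numbers stand for is not known.

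Aldh1a1, a retinal dehydrogenase, read 9.27, 5.65 and 5.68 with empty vector, 10.03, 5.90 and 5.29 with the full-length and 10.02, 6.05 and 6.10 with the deleted receptor. In every group the array numbered 1 was far above the others, and the groups overlapped. Its difference was 0.21 with the full-length receptor (95% interval -3.20 to 3.62), which leaves the replicate number out of the fit. For deleted receptor it was 0.53 (95% interval -2.89 to 3.94). With the number as a block, that interval was 0.03 to 1.03 and the difference was still not called (limma adjusted p = 0.475). Aldh1a7, a close rodent copy whose gene lies next to it, read 7.45, 4.47 and 4.79, then 8.80, 4.61 and 4.79, then 8.67, 5.07 and 5.58 in the same order of groups. It showed the same high array in each group. Probe sets of these copies can share transcripts, so their values are not separate measurements with certainty.

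Other members followed other numbers. Gsto2 read 9.15, 8.09 and 10.24 with empty vector, 9.29, 8.47 and 10.60 with the full-length and 9.26, 8.48 and 10.79 with the deleted receptor, highest in the arrays numbered 3. Gstm2 read 8.82, 9.40 and 7.54, then 8.91, 9.63 and 7.41, then 8.82, 9.71 and 7.65, lowest in those arrays. Gstm1 and Aldh6a1 were lowest in the arrays numbered 3 as well. The order of the 3 numbers was therefore the same in all groups for Gsto2 and Gstm2, but differed between the genes.

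**Figure D3:**
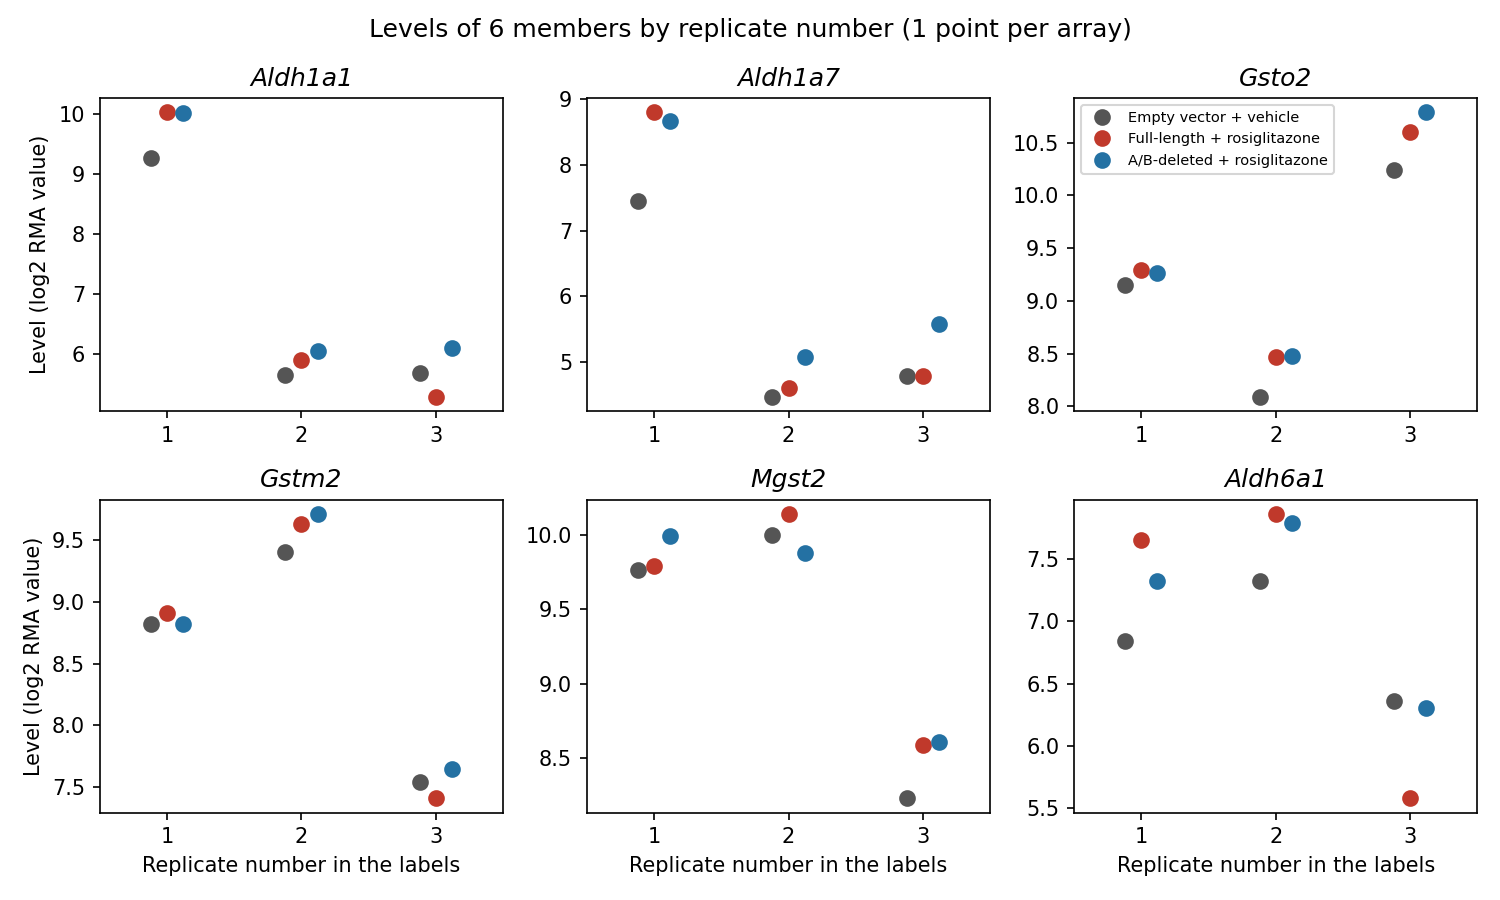
Log2 RMA level of Aldh1a1, Aldh1a7, Gsto2, Gstm2, Mgst2 and Aldh6a1 by the replicate number in the labels, 1 point per array and 1 colour per group; the vertical axes differ and do not start at 0. Aldh1a1 and Aldh1a7 are high in the arrays numbered 1, Gsto2 is high and Gstm2, Mgst2 and Aldh6a1 are low in those numbered 3, whatever the group.

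**Figure D4:**
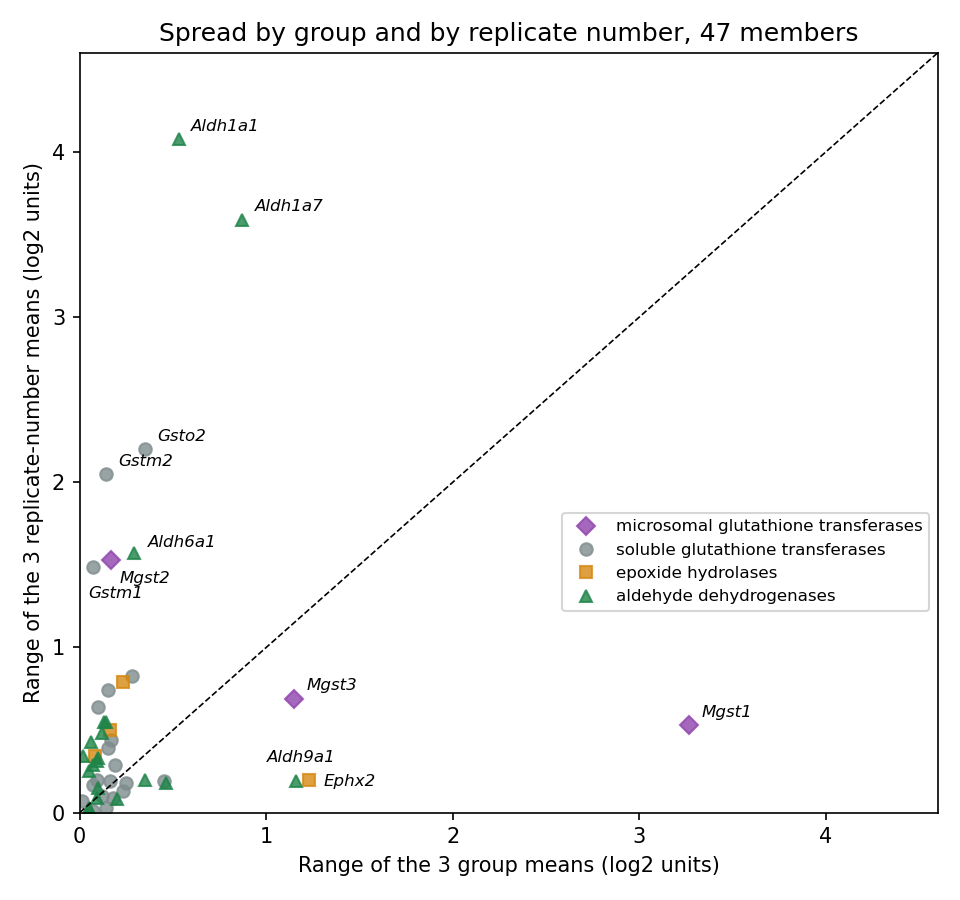
Range of the 3 group means (horizontal) against the range of the 3 replicate-number means (vertical), in log2 units, 1 point per member, with equal values on the dashed line. Mgst1 (3.27 across groups), Ephx2, Aldh9a1 and Mgst3 lie to the right, and Aldh1a1 (4.08 across numbers) and Aldh1a7 lie at the top.

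Aldh9a1 and Mgst3 are neighbouring protein-coding genes in the RefSeq annotation of GRCm38.p6, a pair picked out after their values were seen. With the full-length receptor the nearest 3 genes on the side of Aldh9a1 differed by 0.22 (Fam78b), -0.07 (Uck2) and 0.18 (Tmco1), and those on the side of Mgst3 by 0.03 (Lrrc52), 0.10 (Rxrg) and 0.01 (Lmx1a). None of these 6 genes was called. Tmco1 and Uck2 stood at 9-array means of 11.17 and 10.29. Fam78b (6.59), Lrrc52 (5.95), Rxrg (6.54) and Lmx1a (6.15) lay below the median of all probe sets, 6.81. Without detection calls, their small differences do not show whether the genes on the side of Mgst3 stayed unchanged. In all, 19 of the 47 members lie next to another member, in 13 neighbouring pairs, among them the mu and theta clusters. No gene of the other pairs was called without a block.

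The 250 bases before the RefSeq start are shown for Mgst1, Aldh9a1 and Mgst3, since their receptor arrays lay above all empty-vector arrays and the latter pair are neighbours. The windows are from GRCm38.p6 and read 5′ to 3′ on the gene's strand. Mgst1 lies at chr6:138140277-138140526 (+ strand, the first of its listed starts), Aldh9a1 at chr1:167349741-167349990 (+ strand) and Mgst3 at chr1:167393842-167394091 (- strand). Capitals mark the letters TGACNNNGC on either strand, the core of the antioxidant response element that NRF2 binds.
Mgst1: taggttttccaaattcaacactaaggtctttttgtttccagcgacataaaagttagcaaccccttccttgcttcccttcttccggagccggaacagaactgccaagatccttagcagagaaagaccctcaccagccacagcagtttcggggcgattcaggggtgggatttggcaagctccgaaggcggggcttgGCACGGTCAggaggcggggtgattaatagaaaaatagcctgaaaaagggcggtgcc
Aldh9a1: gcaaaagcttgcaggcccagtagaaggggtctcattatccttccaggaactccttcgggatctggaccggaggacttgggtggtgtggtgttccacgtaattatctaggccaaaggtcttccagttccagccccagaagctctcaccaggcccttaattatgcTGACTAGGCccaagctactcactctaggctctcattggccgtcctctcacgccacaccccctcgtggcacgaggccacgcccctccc
Mgst3: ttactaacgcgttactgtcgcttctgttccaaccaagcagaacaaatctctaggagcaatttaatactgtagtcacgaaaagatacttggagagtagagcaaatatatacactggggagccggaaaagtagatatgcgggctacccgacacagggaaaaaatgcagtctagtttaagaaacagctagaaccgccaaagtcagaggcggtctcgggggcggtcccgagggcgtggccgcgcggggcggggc

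Windows were listed for 38 of the 47 members, 50 windows in all. Ephx2, whose receptor arrays also lay above all empty-vector arrays, was among the 9 members without a listed window and was not searched. The core TGACNNNGC stood in 6 of the 50 member windows, against 10.2% of 32851 windows of this length. It was in the windows of Mgst1, starting at -56 from the gene's start, and of Aldh9a1, at -87. The uncalled Aldh1a2, Gsta3, Gstm5 and Gstm7 had it too. The other listed start of Mgst1 had none. The PPAR response element, searched as a direct repeat of AGGTCA with 1 free base between the units, was in 0 of 50 member windows and in 0.0335% of all. The looser form with AGGNCA as the unit, which includes it, was in 0 and 0.338%. The single unit AGGTCA, which the repeat contains, was in 4 member windows and in 14.0% of all. These are matches of letters on both strands within 250 bases and say nothing of binding.

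Other genes of these pathways were followed in 5 lists chosen for function. Counts for the lists are of the fit without the block unless the block is named. Among NRF2 targets, the genes of the antioxidant response, 25 of 30 were measured and 0 were called in any comparison without the block. Their median difference was -0.04 with the full-length and -0.02 with the deleted receptor. By unadjusted p under 0.05 the counts were 1 and 1, where all genes had 6.19% and 3.79%, against which the counts of the other lists are to be read too. Of glutathione synthesis genes and peroxidases 35 of 36 were measured, with 0 called, 6 and 0 by unadjusted p, and medians of -0.04 and 0.00. Of other aldehyde, ketone and alcohol enzymes 31 of 36 were measured, with 0 called, 6 and 4 by unadjusted p, and medians of -0.01 and 0.02. Of other phase 1 and 2 enzymes 37 of 40 were measured, with 0 called, 3 and 1 by unadjusted p, and medians of 0.01 and -0.07. These medians lay close to the 0.00 and -0.03 of all genes. By unadjusted p with the full-length receptor, 6 of 35, 6 of 31 and 3 of 37 were larger shares than the 6.19% of all genes. The 1 of 25 NRF2 targets was a smaller one. With the deleted receptor 4 of 31 was a larger share than 3.79%, 1 of 25 was near it, and 0 of 35 and 1 of 37 were smaller.

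Of 25 eicosanoid genes measured of 28, 1 was called lower with full-length and 0 with deleted receptor (4 and 3 by unadjusted p), with medians of 0.01 and -0.01. Ptger4, a receptor for prostaglandin E, read 9.39, 9.16 and 9.16 with empty vector, 8.41, 7.82 and 7.93 with the full-length and 8.98, 8.50 and 8.91 with the deleted receptor. Its full-length arrays lay below all others. It fell by 1.18 with the full-length receptor (SE 0.19, limma adjusted p = 0.0238). The call was lost without full-length array 2 (0.123) or 3 (0.0620), without empty-vector array 1 (0.111), 2 (0.0982) or 3 (0.0642), with only the 6 arrays compared (0.0580) and without the arrays numbered 3 (0.107).

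With the replicate number as a block, 3 of the 145 different list genes measured were called with the deleted receptor, 2 higher and 1 lower, against 0.66% and 0.253% of all genes. Cyp26b1, which degrades retinoic acid, read 9.44, 9.98 and 8.47 with empty vector and 11.43, 11.56 and 10.06 with the deleted receptor, and rose by 1.72 (limma with the block, adjusted p = 0.0144; 0.577 without it). Cyp1b1, a cytochrome that oxidises hydrocarbons and steroids, read 7.52, 9.59 and 5.61 with empty vector and 9.04, 10.52 and 6.95 with the deleted receptor. It rose by 1.27 (limma adjusted p = 0.0291 with the block, 1.00 without it). The groups overlapped, but at each replicate number the deleted-receptor array was the higher. Ptgs2, the inducible cyclooxygenase, read 11.32, 11.25 and 12.14 with empty vector and 10.45, 10.26 and 11.60 with the deleted receptor. It fell by 0.80 (limma adjusted p = 0.0331 with the block, 1.00 without it). Here too the groups overlapped, while at each number the deleted-receptor array was the lower. Between the receptors no list gene was called with or without the block.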

How the data were processed

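The authors deposited 1 log2 value per probe set and array, and the submitters' processing notes name RMA, affy and R 2.5.0. No source states the base: taken as 2, it returned whole hundredths (tolerance 0.01 of a hundredth) for at least 99.858% of each array's values. Of 45101 probe sets, 34945 with 1 symbol in the platform annotation, control probe sets left out, were used, giving 18193 genes. Probe sets with several symbols (932) or none (9160) were left out, 3 of them with a member among their symbols. Differences were tested two-sided with limma 3.58.1 in R 4.3.3, in 1 fit of 9 arrays without a block, and adjusted by Benjamini-Hochberg over all genes. Tables and figures were made with Python 3.11.15.

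Deviations from the group means correlated between equal replicate numbers at 0.570, 0.520 and 0.708 for the deleted receptor and empty vector. For the receptors the correlations were 0.297, 0.507 and 0.531. In these comparisons equal numbers were treated as pairs, but only in the fit with the block. For the full-length receptor and empty vector the correlations were -0.121, 0.631 and 0.255, and the numbers were not taken as pairs. The fit without the block pairs no arrays, so its standard errors, intervals and calls are unpaired in every comparison. The block gives each number a shared effect in all groups, so it also pairs the full-length and empty-vector arrays. In simulated data for 18193 genes in the comparison of the full-length receptor with empty vector, 70% of true differences of 1, 100% of 2, 98% of 3 and 92% of -2 were called. Only a part of the genes was given a difference, and noise was drawn separately for each array. The shared deviations of equal numbers were absent there, so these shares need not hold for the real arrays.

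Members and lists were chosen with earlier results of these data known. Named were the called members (with or without the block), the 3 largest differences of each family and comparison, up to 4 called genes of each list and comparison, and Pparg and Cxadr. Promoters and neighbours came from RefSeq, GRCm38.p6. Alternatives were the block, averaging all probe sets of a gene, median subtraction, quantile normalization, a filter at the median of all probe sets, an intensity trend, only the 6 arrays compared, and leaving out each array or the 3 numbered 3. The last was also run with the block, which was chosen after seeing the data.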

Additional observations from a re-analysis of the deposited data

How the results depend on the processing

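The count of members called was 3 with the full-length receptor against empty vector and 5 with the replicate number as a block. The block pairs these arrays too, although 1 of the 3 correlations between equal numbers was negative there. The count of 5 is therefore given only as an alternative. Mgst3 (1.15, limma adjusted p = 0.00704) and Aldh3a2 (-0.46, limma adjusted p = 0.0464) were the added members, the latter lower. With that block the 95% interval of Aldh1a1 was -0.29 to 0.71. Of all 18193 genes that fit called 344 higher and 317 lower. By unadjusted p under 0.05 it counted 9 members, 3 of them soluble transferases, and 14.2% of all genes. In that fit, list genes called were Cbr1, Cbr3, Maoa, Gpx1, Gpx4, Ptges, Cyp1b1, Cyp26b1 and Cyb5a, all higher, and Ptgs2, Pla2g4a, Ptger4, Ggct, Rdh14 and Cyp39a1, all lower. Their limma adjusted p ran up to 0.0446, and Cbr3 (limma adjusted p = 0.00785) is on the list of NRF2 targets. The count of 2 with the deleted receptor became 1 after median subtraction, 0 with only the 6 arrays compared and 0 to 2 without 1 array each. With the full-length receptor it was 3 without any 1 array, and between the receptors it was 0 in all 18 alternatives. None of the 5 called differences of the named members changed sign in these alternatives, while 30 of the 49 uncalled ones did in at least 1 of them, so their signs are not firm. With 3 arrays a group and no detection calls, small differences and dim probe sets cannot be judged. The causes of the lost calls were not tested.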
